A study of Homo sapiens with 3 samples.

Results

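Kinesins are motor proteins that use ATP to move along microtubules or to take their ends apart. Mitotic kinesins build the spindle, align chromosomes and complete cell division, and their transcripts accumulate in dividing cells. Transport kinesins carry vesicles, organelles and RNA towards the cell edge, usually through light chains or adaptors that pick the cargo, and a few further kinesins serve cilia or act as signalling scaffolds. The genes described here are the protein-coding genes in the deposited table whose symbol begins with KIF and a digit, without read-through or antisense entries and without KIF2A. They number 33 of 30923 genes and were divided by role into 12 mitotic, 14 transport and 7 other kinesins. Members were chosen by a rule of names, set with earlier results of these data known.

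RNA was sequenced from cultured QBC-939 cells, a line from a human bile duct cancer (cholangiocarcinoma), of WT genotype per the labels. The 3 groups overexpressed miR-182-5p (label oe-miR-182-5p), miR-183-5p (oe-miR-183-5p) or a control called NC (oe-NC), and each was represented by 1 library. All values therefore come from a single line and single libraries: there is no replicate check, no p-value was computed, and the 95% intervals given after ratios cover counting error only. The titles of both microRNA samples carry the letters mim, which the labels do not explain, and they give no dose or time. MicroRNA levels were not analysed here, so nothing checks the overexpression.

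Library totals were 61709874 counts for miR-182-5p, 67427313 for miR-183-5p and 64516706 for NC. Of the epithelial markers, KRT8 had 2772 CPM in miR-182-5p cells, 3003 in miR-183-5p cells and 3424 in NC cells (CPM are counts scaled to an equal library total); KRT18 had 1623, 1868 and 2099 CPM and KRT19 had 211, 215 and 229 CPM. EPCAM had 513, 514 and 499 CPM, the biliary transcription factor gene SOX9 had 128, 103 and 119.9 CPM, and the biliary keratin gene KRT7 had only 6.17, 6.96 and 4.99 CPM. The listed hepatocyte, endothelial and immune genes summed to at most 3.84 CPM per list in any library. The mesenchymal filament gene VIM had 3.42, 3.71 and 3.70 CPM, and the fibroblast list summed to 20.2, 12.5 and 11.2 CPM, almost all of it COL1A1. The part of these markers in the kinesin values was not tested. Mitochondrially encoded genes took 16.7%, 16.1% and 13.5% of the counts, which lowers all nuclear CPM in the microRNA libraries slightly; calls that end with nuclear counts alone are named where they occur.

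The overexpressed microRNAs are shown first, with bases 2 to 8 (the seed, which pairs with target messages) in capitals, as RefSeq gives them for GRCh38.p14. Both lie on the minus strand of chromosome 7, miR-182-5p at chr7:129770447-129770470 and miR-183-5p at chr7:129774967-129774988.
miR-182-5p: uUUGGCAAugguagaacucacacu
miR-183-5p: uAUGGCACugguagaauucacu
The seeds differ at 2 positions, U2A and A8C, with the miR-182-5p base first and positions counted from 1 at the 5′ end.

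Few kinesins carry a matching 7-base seed site (the complement of bases 2 to 8) in the longest annotated 3' UTR of GENCODE 29. A miR-182-5p site, TTGCCAA, was found in 3 of 33 members, against 15.3% of the 12199 genes searched that had a mean of at least 1 CPM. A miR-183-5p site, GTGCCAT, was found in 3 of 33, against 12.5% of those genes. The 33 include 5 members with a mean below 1 CPM, which held no site. Whether kinesins hold fewer sites than other genes was not tested. The sites fall in 4 genes and are printed 5′ to 3′ on the gene's strand with the site in capitals, because they show where a kinesin transcript could pair with the seed of an overexpressed microRNA.
KIF1B, miR-182-5p site, chr1:10381079-10381085 (plus strand): gaggttggtctcTTGCCAAaccgtggctgt
KIF1B, miR-183-5p site, chr1:10377560-10377566 (plus strand): cagttggaattaGTGCCATgtcatacacaa
KIF3B, miR-182-5p site, chr20:32334470-32334476 (plus strand): aatgtagaatcgTTGCCAAgtttctgagaa
KIF3B, miR-183-5p site, chr20:32332086-32332092 (plus strand): gtctgtaagctgGTGCCATgtccatacacc
KIF13A, miR-183-5p site, chr6:17760137-17760143 (minus strand): actgcaagtttgGTGCCATaattcccttgg
KIF18B, miR-182-5p site, chr17:44926300-44926306 (minus strand): gggcctagggtaTTGCCAAgcatctcaggg
Coordinates are those of the capitals in GRCh38. Only the miR-182-5p site of KIF1B and the miR-183-5p site of KIF13A are followed by an A, the extension that makes the strongest class of seed match.

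The levels of the genes with sites lay close to NC. KIF1B, a motor for mitochondria and synaptic vesicle precursors that holds a site for each microRNA, had 51.7 CPM in miR-182-5p cells, 51.6 in miR-183-5p cells and 53.6 in NC. Its ratio to NC was 0.965 (0.919 to 1.01) for miR-182-5p and 0.962 (0.917 to 1.01) for miR-183-5p. KIF3B, a subunit of the heterotrimeric kinesin-2 that serves cilia and vesicle traffic and also holds both sites, had 107.7, 106 and 115 CPM. Both microRNA libraries were thus below NC for KIF3B, at 0.937 (0.906 to 0.969) and 0.926 (0.896 to 0.957). KIF13A, which moves recycling endosomes and holds a miR-183-5p site, had 91.2, 94.5 and 100.3 CPM. It stood at 0.943 (0.910 to 0.976) in miR-183-5p cells and, with no miR-182-5p site, at 0.909 (0.877 to 0.943) in miR-182-5p cells. KIF18B, a mitotic kinesin acting on the plus ends of astral microtubules, was higher in the library of the microRNA whose site it holds, with 75.8 CPM for miR-182-5p, 71.4 for miR-183-5p and 64.7 for NC. Its ratio to NC was 1.17 (1.12 to 1.22) for miR-182-5p and 1.104 (1.06 to 1.15) for miR-183-5p. A difference is called here at 1.2-fold or more in CPM, a rule of size, and none of these 4 genes reached it on library totals; KIF18B did in miR-182-5p cells with nuclear counts alone, at 1.22.

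Transcript levels divided by length (FPKM, as deposited) show which of the member transcripts were abundant in QBC-939 cells. KIF2A and kinesins without a KIF number are not part of these levels. Mitotic kinesins made up 51.6% of the FPKM summed over the 33 members in miR-182-5p cells, 52.2% in miR-183-5p cells and 51.8% in NC. Transport kinesins made up 39.4%, 39.7% and 41.6%, and the others 9.05%, 8.04% and 6.61%. A mean of at least 1 CPM over the 3 libraries, the filter used for all comparisons, was reached by 11 mitotic, 11 transport and 6 other members. Among these, 8 mitotic and 3 transport members had a mean FPKM of at least 10, and 0 of the other kinesins did. The 2 main groups therefore differ in shape: most mitotic motors sat at similar levels, while the transport group was led by a few genes.

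**Figure D1:**
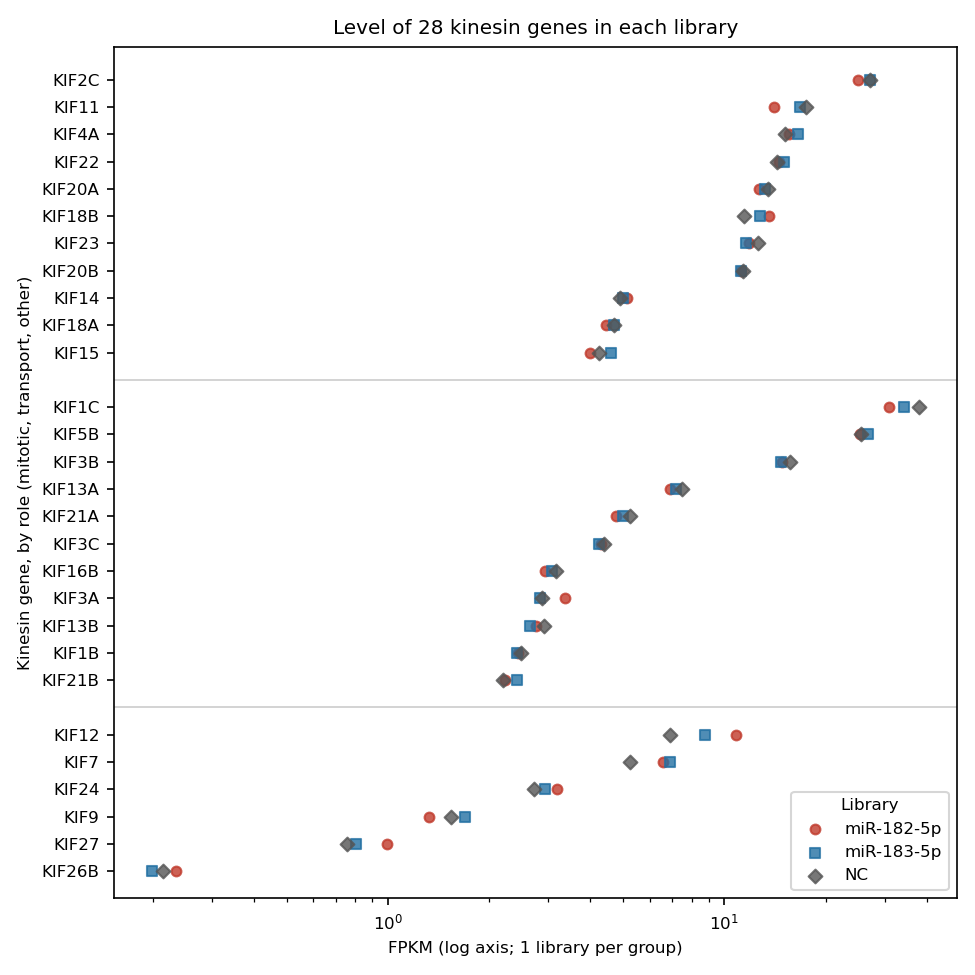
FPKM (horizontal, log axis) of the 28 kinesin genes that passed the filter, in the miR-182-5p (circles), miR-183-5p (squares) and NC (diamonds) libraries, 1 library each; rows are grouped into mitotic, transport and other kinesins. Mitotic levels run from 3.99 to 27.1 FPKM, transport levels from 2.20 to 37.8, and the widest spacing between libraries is that of KIF12.

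KIF1C, a motor for Golgi-derived vesicles and messenger RNA, was the most abundant of the 33 members, at 30.9 FPKM in miR-182-5p cells, 34.3 in miR-183-5p cells and 37.8 in NC. By mean FPKM it ranked 869 of all genes in the table. KIF2C (also called MCAK), which removes tubulin from microtubule ends at kinetochores, had 24.9, 27.1 and 27.1 FPKM. KIF5B, the ubiquitous heavy chain of conventional kinesin, had 25.3, 26.7 and 25.5 FPKM. The ranges of KIF2C and KIF5B over the 3 libraries overlap, so their order is not fixed by these data, whereas KIF1C lay above both in every library. Then came KIF11 at 14.1, 16.8 and 17.4 FPKM, KIF4A at 15.6, 16.6 and 15.1, KIF3B at 14.9, 14.7 and 15.6 and KIF22 at 14.5, 15.1 and 14.3. Their ranges overlap in the same way, except those of KIF4A and KIF22. The lowest KIF4A value, 15.15 in NC, was above the highest KIF22 value, 15.08 in miR-183-5p cells. KIF11 is the motor that pushes spindle poles apart, and KIF4A and KIF22 are chromokinesins that bind chromosome arms. The further mitotic motors in the range of 11.2 to 13.6 FPKM were KIF20A, KIF18B, KIF23 and KIF20B, followed by KIF14, KIF18A and KIF15 between 3.99 and 5.15. Highest among the other kinesins were KIF12 at 10.8, 8.79 and 6.90 FPKM and KIF7 at 6.56, 6.90 and 5.24.

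KIF1A, KIF17 and KIF5A, which are known from neurons, were near or at zero, whereas KIFC2, also known from neurons and given below, was not. Members were not sorted by expression in neurons, so this is no statement about neuronal kinesins as a class. KIF1A, the axonal vesicle motor, had 0 counts in miR-182-5p cells, 5 in miR-183-5p cells and 4 in NC cells. KIF17, a dendritic and ciliary motor, had 13, 0 and 6 counts. The exact 95% interval around a count of 0 reached 0.0598 CPM for KIF1A in miR-182-5p cells and 0.0547 CPM for KIF17 in miR-183-5p cells. The interval of the ratio to NC ran from 0 to 1.58 for KIF1A in miR-182-5p cells, which includes 1, and from 0 to 0.813 for KIF17 in miR-183-5p cells. KIF5A, the neuronal heavy chain, had 59, 12 and 23 counts, and its ratio to NC was 2.68 (1.63 to 4.55) for miR-182-5p and 0.499 (0.226 to 1.05) for miR-183-5p. It shares 1199 bases of its span with DCTN2 on the other strand, which had 76.4, 76.4 and 74.9 CPM, and whether counting used strand is not given in the sources used here. KIF25, a minus-end family member, had 30, 14 and 35 counts, and KIF4B, an intronless copy of KIF4A whose reads may be shared with it, had 30, 26 and 27. These 5 genes fell under the filter and entered no count of calls. KIF2B, KIF5C, KIF6, KIF19 and KIF26A have no row in the table and were not analysed here.

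Most mitotic kinesin promoters held an element known from cell cycle genes. The cell cycle homology region, or CHR (searched as TTTGAA or TTCGAA on either strand), is a known element of promoters that are active in late cell cycle and is often paired with CCAAT boxes. RefSeq promoters, 250 bases before to 50 after the gene start, were at hand for 28 members. A CHR was present in 10 of 12 mitotic promoters, 1 of 11 transport promoters and 1 of 5 of the others, against 16.4% of all 35116 promoters in the table and 10.9% of the 9883 belonging to protein-coding genes with a mean of at least 1 CPM. A CCAAT box on either strand was present in 10 of 12 mitotic, 3 of 11 transport and 2 of 5 other promoters, against 34.6% of all promoters. Both were present in 9 of 12 mitotic promoters, against 6.38% of all. These are counts of letters, not of bound sites, and the promoters of KIF4A and KIF4B share their origin.

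All CHR matches of mitotic kinesins began between 55 bases before and 30 bases after the gene start, counted from 0 at its first base. The following stretches are shown because 10 of the 12 mitotic genes have such a match, with the KIF5B and KIF24 matches for comparison. Each is in GRCh38.p14, 5′ to 3′ on the gene's strand, with the CHR letters in capitals; TTCAAA is TTTGAA read from the other strand.
KIF11, chr10:92593082-92593127 (plus): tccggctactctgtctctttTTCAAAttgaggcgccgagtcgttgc
KIF15, chr3:44761739-44761784 (plus): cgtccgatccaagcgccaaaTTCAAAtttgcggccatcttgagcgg
KIF14, chr1:200620725-200620770 (minus): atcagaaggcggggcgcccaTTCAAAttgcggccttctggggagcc
KIF4A, chrX:70290050-70290095 (plus): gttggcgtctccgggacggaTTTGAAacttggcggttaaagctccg
KIF4B, chr5:155013738-155013783 (plus): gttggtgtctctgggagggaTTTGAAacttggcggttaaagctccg
KIF18A, chr11:28108141-28108186 (minus): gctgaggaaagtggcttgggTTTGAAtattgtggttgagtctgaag
KIF18B, chr17:44947746-44947791 (minus): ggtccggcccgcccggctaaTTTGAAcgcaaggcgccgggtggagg
KIF23, chr15:69414274-69414319 (plus): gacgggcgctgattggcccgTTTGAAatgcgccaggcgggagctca
KIF20B, chr10:89701594-89701639 (plus): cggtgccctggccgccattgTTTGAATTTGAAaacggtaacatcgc
KIF22, chr16:29790704-29790749 (plus): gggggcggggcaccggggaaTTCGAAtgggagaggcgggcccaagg
KIF24, chr9:34329242-34329287 (minus): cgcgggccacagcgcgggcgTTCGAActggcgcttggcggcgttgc
KIF5B, chr10:32056540-32056585 (minus): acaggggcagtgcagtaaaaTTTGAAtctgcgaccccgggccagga
The KIF5B match lies 140 bases before the gene start, farther out than any mitotic match, and the KIF24 match 1 base after it. This RefSeq start of KIF24 lies outside the span deposited for the gene, 34252381 to 34311371 on chromosome 9. KIF2C and KIF20A held none of these letters in the window.

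**Figure D2:**
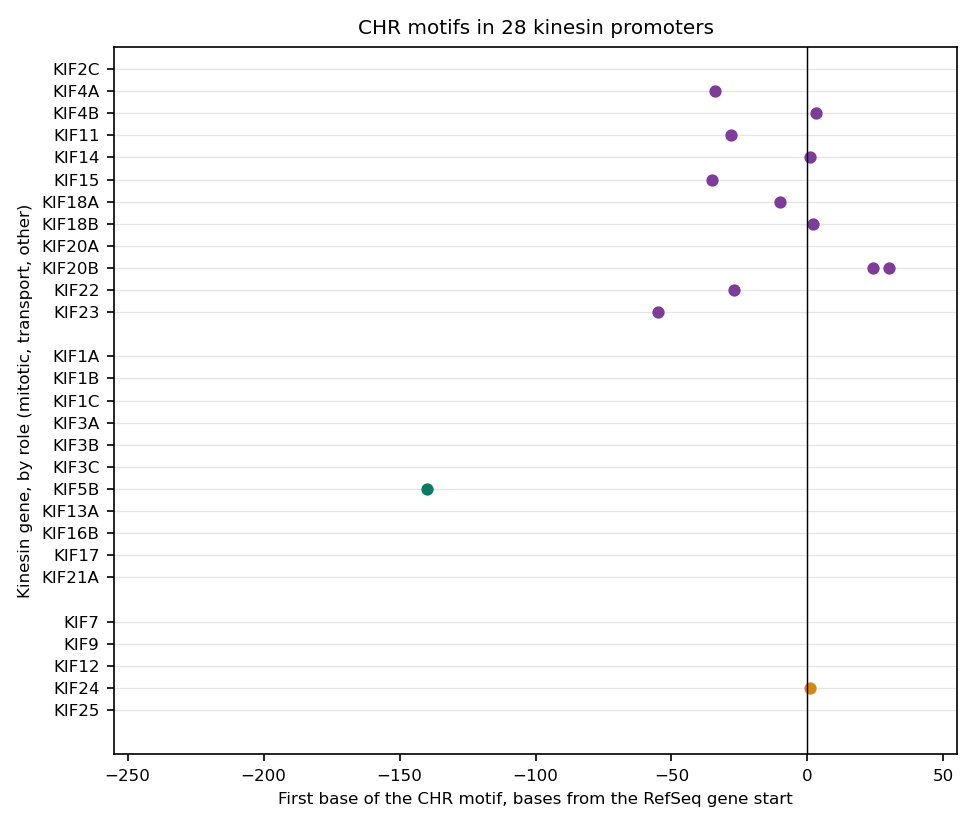
Position of CHR motifs (horizontal, bases from the RefSeq gene start, where 0 is the first base) in the 28 kinesin promoters available, grouped into mitotic, transport and other kinesins; each point is a match and empty rows have none. Mitotic matches lie between -55 and 30, the transport match of KIF5B at -140 and that of KIF24 at 1.

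Setting miR-182-5p cells against NC cells asks which transcripts differ when this microRNA is abundant. Among kinesins, KIF12, KIF7 and KIF27, all from the mixed group of other kinesins, were higher, and KIF11 and KIF1C were lower. These are 3 higher and 2 lower genes of 28 tested, or 10.7% and 7.14%, where 27% of all 14862 genes tested were called higher and 19.2% lower. Most members stayed near their NC level: the median absolute log2 ratio was 0.11 for the 28 kinesins, 0.24 for all genes tested and 0.19 for protein-coding genes of at least 20 CPM. Scaling to nuclear counts alone gave 6 higher and 1 lower, adding KIF3A, KIF18B and KIF24 to the higher genes, and TMM scaling gave 2 higher and 3 lower. With protein-coding genes of at least 20 CPM as the background, chosen after seeing the data, 2 of 25 members were called higher against 12.9% of genes, and 2 lower against 21.2%.

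With miR-183-5p, KIF12 and KIF7 were higher and 0 kinesins were lower, that is 7.14% and 0% of the 28, against 14.2% and 11.6% of 14861 genes tested. The median absolute log2 ratio was 0.08 for kinesins, 0.15 for all genes and 0.10 for protein-coding genes of at least 20 CPM. Against the narrower background of protein-coding genes at 20 CPM or more, 2 of 25 members were higher where 3.1% of genes were, and 0 lower where 6.25% were. The comparisons share the NC library, so a high or low count there moves both ratios together.

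**Figure D3:**
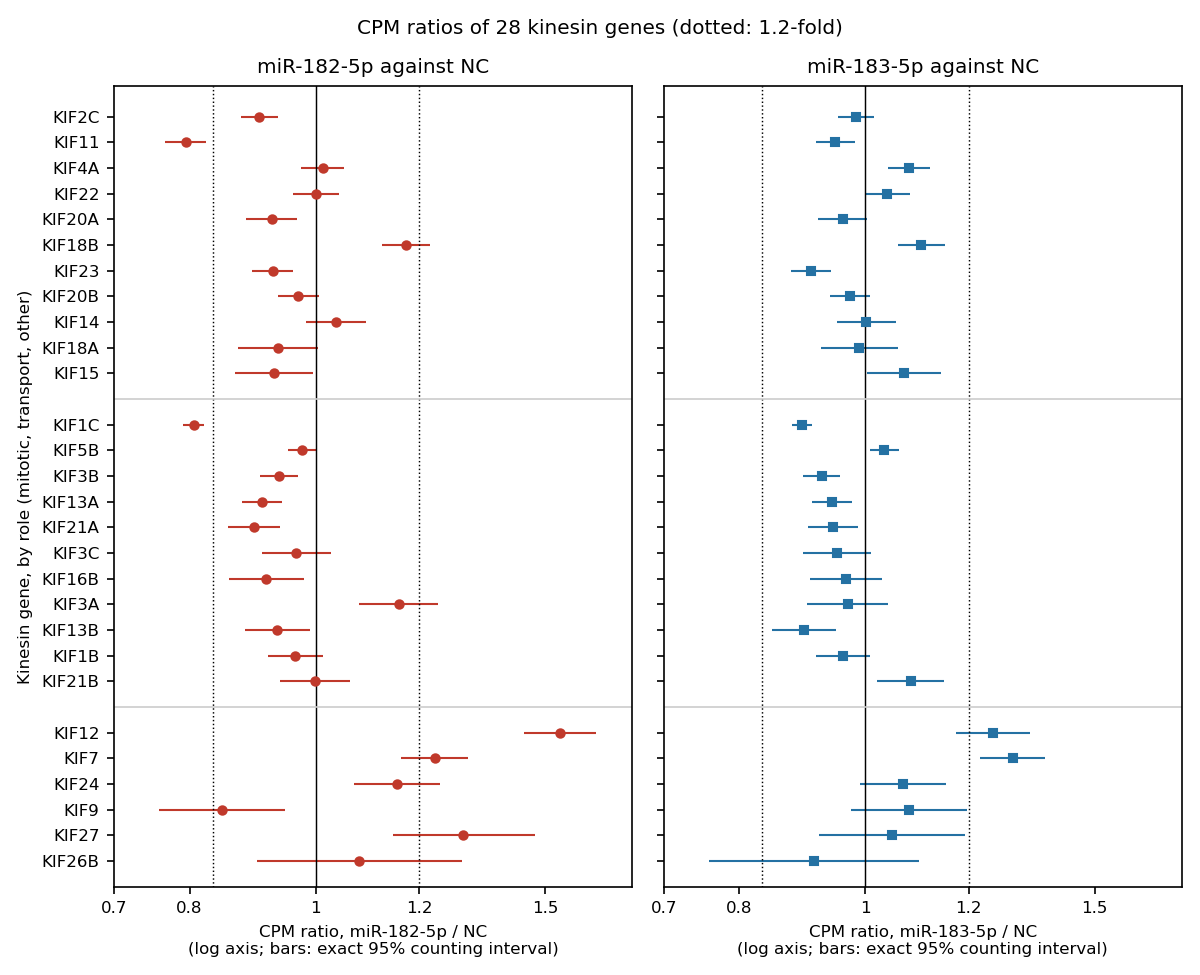
CPM ratio to NC (horizontal, log axis) of the 28 kinesin genes in the miR-182-5p (left) and miR-183-5p (right) libraries, with exact 95% intervals for counting error and dotted lines at 1.2-fold; rows are grouped into mitotic, transport and other kinesins. KIF12 stands at 1.54 on the left and 1.25 on the right, and KIF11 and KIF1C lie left of the lower dotted line for miR-182-5p alone.

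KIF12 showed the widest difference of any member that passed the filter. This kinesin is expressed in kidney and liver epithelium, and inherited loss of it causes cholestatic liver disease in people. It had 2399 counts (38.9 CPM) in miR-182-5p cells, 2133 (31.6 CPM) in miR-183-5p cells and 1629 (25.2 CPM) in NC. The 3 libraries thus lay apart by more than counting error, with miR-182-5p highest and NC lowest. Its ratio to NC was 1.54 (1.45 to 1.64) for miR-182-5p and 1.25 (1.17 to 1.34) for miR-183-5p, and it was called higher under all 4 scalings tried. KIF12 (ENSG00000136883) lies on the minus strand of chromosome 9, 114086126 to 114099227, and overlaps no other gene of the table.

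KIF7, which sits at the tip of the primary cilium and regulates GLI factors in Hedgehog signalling, had 2408, 2766 and 2040 counts, or 39.0, 41.0 and 31.6 CPM. Both microRNA libraries lay above NC. The ratio was 1.23 (1.16 to 1.31) for miR-182-5p, which became 1.18 and was no longer called with TMM or median-of-ratios scaling, and 1.297 (1.22 to 1.37) for miR-183-5p. KIF7 shares 19235 bases with TICRR on the opposite strand, a replication gene with 80.5, 84.4 and 77.7 CPM, and TICRR stood at 1.04 and 1.09 times NC.

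KIF27, the closest relative of KIF7, which acts in motile cilia in mice, had 565, 498 and 455 counts (9.16, 7.39 and 7.05 CPM). It was called higher in miR-182-5p cells at 1.298 (1.15 to 1.47), while the interval for miR-183-5p included 1 at 1.05 (0.920 to 1.19). KIF24, a centriolar kinesin that restrains cilium formation, had 23.09, 21.36 and 19.995 CPM and a ratio of 1.15 (1.07 to 1.25) for miR-182-5p and 1.07 (0.990 to 1.15) for miR-183-5p. KIF9, a kinesin of motile cilia and flagella in mice, was the only 1 of the 6 tested members of this group below NC in miR-182-5p cells, with 9.27 CPM there, 11.8 in miR-183-5p cells and 10.9 in NC. Its ratio was 0.847 (0.757 to 0.947) for miR-182-5p and 1.08 (0.975 to 1.197) for miR-183-5p, and with TMM scaling the miR-182-5p ratio was 0.813, a call. KIF9, KIF24 and KIF27 each share part of their span with a gene on the other strand, among them KLHL18 for KIF9 and UBAP1 for KIF24. KIF26B, a non-motile family member, had 4.04, 3.41 and 3.74 CPM, within counting error of each other. Summed over this group of 7, the CPM were 123.9, 117 and 99.1, and the ratio to NC was 1.25 (1.21 to 1.29) for miR-182-5p and 1.18 (1.14 to 1.22) for miR-183-5p, set mainly by KIF12 and KIF7.

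Among mitotic kinesins the only call against NC on library totals was KIF11 (ENSG00000138160; plus strand of chromosome 10, 92593130 to 92655395), also known as Eg5. KIF18B, given above, was called higher in miR-182-5p cells with nuclear counts alone. KIF11 had 5153 counts (83.5 CPM) in miR-182-5p cells, 6720 (99.7 CPM) in miR-183-5p cells and 6781 (105 CPM) in NC. The miR-182-5p library stood apart, at 0.794 (0.766 to 0.824) of NC, and miR-183-5p cells was near NC at 0.948 (0.917 to 0.981). KIF15, which can take over from KIF11 in keeping the spindle bipolar, had 25.0, 28.8 and 26.9 CPM, and its ratio to NC was 0.929 (0.866 to 0.995) for miR-182-5p and 1.07 (1.003 to 1.14) for miR-183-5p. KIF2C had 107.6, 117 and 119 CPM, a ratio of 0.905 (0.875 to 0.935) for miR-182-5p and 0.983 (0.952 to 1.01) for miR-183-5p. Of the chromokinesins, KIF4A had 84.3, 89.9 and 83.3 CPM at 1.01 (0.974 to 1.05) and 1.08 (1.04 to 1.12) of NC. KIF22 had 74.1, 77.0 and 74.1 CPM, within counting error of NC at 1.001 (0.961 to 1.04) and 1.04 (0.999 to 1.08).

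The cytokinesis motors also stayed within 1.2-fold of NC. KIF23, the motor of centralspindlin, had 92.4, 90.6 and 99.7 CPM, so both microRNA libraries were lower, at 0.927 (0.894 to 0.960) and 0.908 (0.877 to 0.941). KIF20A, which brings the chromosomal passenger complex to the spindle midzone, had 57.9, 60.2 and 62.6 CPM and a ratio of 0.925 (0.884 to 0.968) for miR-182-5p and 0.960 (0.919 to 1.003) for miR-183-5p. KIF20B had 90.7, 91.1 and 93.6 CPM, and KIF14, which works with citron kinase at the midbody, 44.5, 43.1 and 43.0 CPM. The intervals of both included 1 in each comparison with NC. KIF18A, which dampens chromosome movements at metaphase, had 23.8, 25.2 and 25.5 CPM, and its intervals included 1 as well. Summed over the 12 mitotic members, the ratio was 0.953 (0.941 to 0.965) for miR-182-5p and 0.995 (0.983 to 1.01) for miR-183-5p. The median log2 ratio of the 11 tested was -0.10 for miR-182-5p, against 0.01 for all genes and -0.06 for protein-coding genes of at least 20 CPM, and -0.02 for miR-183-5p, against -0.02 and -0.05. With nuclear counts alone the mitotic median became -0.04 for miR-182-5p and 0.03 for miR-183-5p, so its direction in miR-183-5p cells depends on the scaling.

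Among transport kinesins KIF1C (ENSG00000129250; plus strand of chromosome 17, 4997950 to 5028401) was the only member called on library totals. It had 19374 counts (314 CPM) in miR-182-5p cells, 23487 (348 CPM) in miR-183-5p cells and 25138 (389.6 CPM) in NC. The libraries were separated by more than counting error, NC being highest. The ratio to NC was 0.806 (0.791 to 0.821) for miR-182-5p and 0.894 (0.878 to 0.910) for miR-183-5p. Scaled to nuclear counts, the miR-182-5p ratio was 0.837 and no longer a call, since the lower bound is 0.833.

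Of 11 transport kinesins tested, 10 were below NC in miR-182-5p cells and 9 in miR-183-5p cells, by small amounts. With nuclear counts alone the first number was 6 and the second stayed at 9. On library totals, 7198 of 14862 and 8084 of 14861 of all genes tested were below NC. Among protein-coding genes of at least 20 CPM, 4579 and 4854 of 7754 were. The transport median log2 ratio was -0.09 for miR-182-5p, against 0.01 for all genes and -0.06 for protein-coding genes of at least 20 CPM. For miR-183-5p it was -0.07, against -0.02 and -0.05. The transport kinesin above NC for miR-182-5p was KIF3A, the partner of KIF3B in kinesin-2, which had 27.4 CPM, against 23.0 in miR-183-5p cells and 23.7 in NC. Its ratio was 1.16 (1.08 to 1.24) for miR-182-5p, or 1.203 and a call with nuclear counts alone, and 0.969 (0.903 to 1.04) for miR-183-5p. KIF3C, an alternative partner of KIF3A, had 32.7, 32.2 and 33.9 CPM and intervals that included 1. KIF5B had 175.6, 186 and 179.7 CPM, with a ratio of 0.977 (0.951 to 1.003) for miR-182-5p and 1.03 (1.01 to 1.06) for miR-183-5p.

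The remaining transport motors lay within 1.2-fold of NC. KIF16B, which binds early endosomes, had 26.8, 28.3 and 29.3 CPM and a ratio of 0.917 (0.857 to 0.980) for miR-182-5p and 0.966 (0.906 to 1.03) for miR-183-5p. KIF13B, which carries the scaffold protein DLG1, had 36.2, 34.8 and 38.8 CPM and ratios of 0.934 (0.882 to 0.989) and 0.898 (0.848 to 0.950). KIF21A, which restrains microtubule growth at the cell cortex, had 57.0, 60.1 and 63.6 CPM and ratios of 0.897 (0.857 to 0.938) and 0.944 (0.904 to 0.986). KIF21B, its relative, had 32.1, 34.9 and 32.2 CPM and ratios of 0.998 (0.938 to 1.06) and 1.08 (1.02 to 1.15). Without KIF1C the summed transport ratio was 0.954 (0.941 to 0.967) for miR-182-5p and 0.972 (0.959 to 0.985) for miR-183-5p; with it, 0.8995 (0.890 to 0.910) and 0.943 (0.933 to 0.953).

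**Figure D4:**
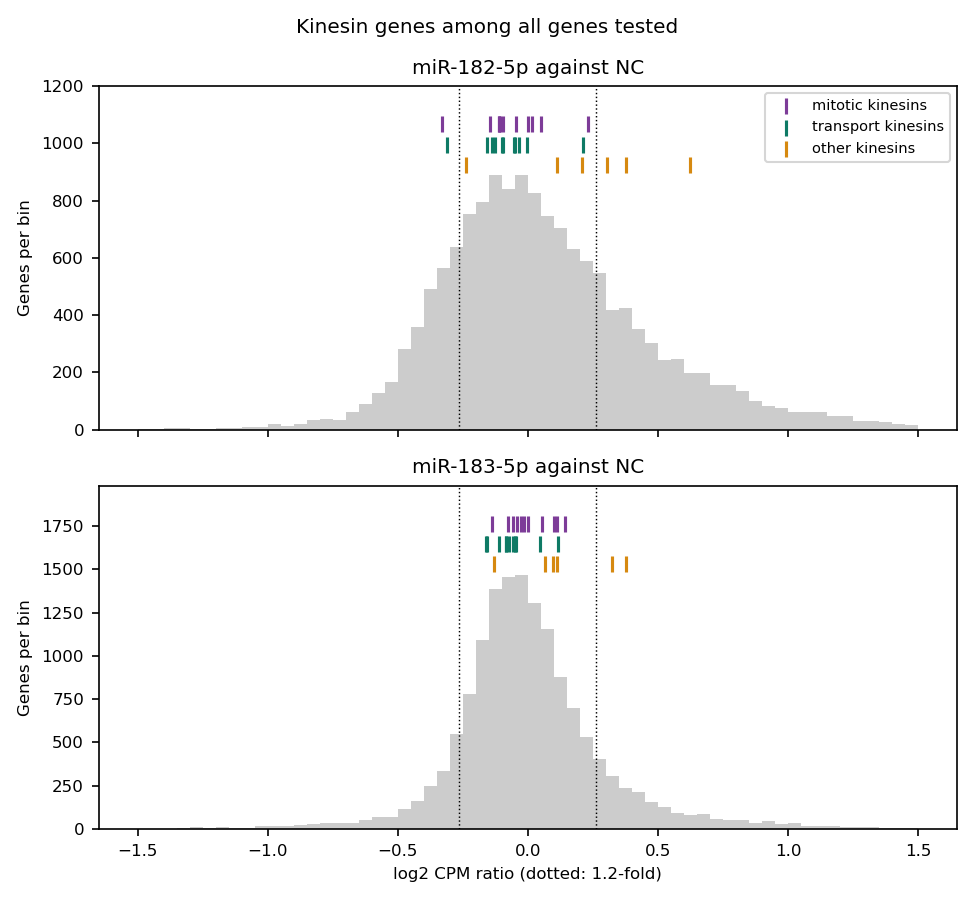
Number of genes per bin of 0.05 in log2 CPM ratio to NC (grey) for miR-182-5p (top) and miR-183-5p (bottom), over all genes tested with a ratio between -1.5 and 1.5, with ticks above for mitotic, transport and other kinesins and dotted lines at 1.2-fold. Most mitotic and transport ticks sit in the centre of the grey distribution, and the ticks farthest to the right belong to the other kinesins, up to 0.62 for KIF12 with miR-182-5p.

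Between the microRNA libraries, miR-182-5p over miR-183-5p, KIF12 and KIF27 were called higher and KIF9 lower. That is 7.14% and 3.57% of 28, against 20.3% and 9.7% of 14862 genes. Above 20 CPM, 1 of 25 members was higher and 0 lower, against 7.58% and 6.04% of protein-coding genes. The ratio was 1.23 (1.16 to 1.303) for KIF12, 1.24 (1.097 to 1.40) for KIF27 and 0.784 (0.703 to 0.874) for KIF9. TMM scaling gave 0 higher and 3 lower, KIF9 with KIF11 and KIF15, because it shifts all log2 ratios of this comparison by -0.07. KIF11 stood at 0.838 (0.808 to 0.869) and KIF3A at 1.19 (1.11 to 1.28) on library totals, both just short of a call; with nuclear counts alone KIF3A was called at 1.204.

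Kinesins that do not carry a KIF number were read beside the members. KIFC2, a minus-end kinesin best known from neurons, had 24.6, 17.1 and 14.4 CPM and was higher in miR-182-5p cells at 1.70 (1.57 to 1.85) and, below the bound for a call, in miR-183-5p cells at 1.19 (1.09 to 1.297). CENPE, the kinetochore motor that moves chromosomes to the spindle equator, had 56.0, 58.9 and 48.6 CPM and ratios of 1.15 (1.097 to 1.21) and, a call, 1.21 (1.16 to 1.27). KIFC1, which focuses spindle poles and clusters extra centrosomes, had 89.7, 94.9 and 95.6 CPM and ratios of 0.939 (0.905 to 0.974) and 0.993 (0.959 to 1.03). KIFC3 stood at 1.04 (1.01 to 1.07) and 0.997 (0.965 to 1.03).

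Some genes for proteins that work with the mitotic motors were lower in miR-182-5p cells, in numbers that depended on the scaling. Of 15 listed partners, 5 were called lower and 1 higher, against 19.2% and 27% of all genes. Among protein-coding genes of at least 20 CPM the shares were 21.2% and 12.9%. Nuclear counts alone gave 3 lower and 1 higher partner, without AURKB and RACGAP1. TMM gave 7 lower and 0 higher, without CIT. PRC1, which bundles midzone microtubules and recruits KIF4A, had 90.1, 107.9 and 123 CPM and a ratio of 0.732 (0.708 to 0.758). MAPRE1, the plus-end protein EB1 to which KIF18B and KIF2C bind, had 127, 149 and 170.1 CPM and a ratio of 0.746 (0.725 to 0.768). BIRC5, or survivin, of the chromosomal passenger complex, had 51.0, 62.9 and 66.6 CPM and a ratio of 0.765 (0.731 to 0.801). AURKB, the kinase of that complex, stood at 0.810 (0.775 to 0.846), and RACGAP1, which forms centralspindlin with KIF23, at 0.822 (0.791 to 0.855). The higher partner was CIT, the citron kinase bound by KIF14, at 84.2, 81.8 and 68.9 CPM and 1.22 (1.17 to 1.27), followed by PSRC1 at 1.14 (1.07 to 1.21) and the proliferation antigen MKI67 at 1.05 (1.04 to 1.07), neither called. The median log2 ratio of the 15 was -0.18, against 0.01 for all genes and -0.06 for protein-coding genes of at least 20 CPM.

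In miR-183-5p cells, 2 of the 15 were called lower and 0 higher, against 11.6% and 14.2% of all genes. Among protein-coding genes of at least 20 CPM the shares were 6.25% and 3.1%. Nuclear counts alone gave 1 of each, NUSAP1 lower and CIT higher, and ended the call of GTSE1. The 2 called lower on library totals were NUSAP1, a spindle microtubule binder, at 0.786 (0.754 to 0.820) and GTSE1, an inhibitor of KIF2C, at 0.820 (0.779 to 0.863). PRC1 was next at 0.876 (0.849 to 0.905), and the highest were CIT at 1.19 (1.14 to 1.23), HMMR at 1.11 (1.06 to 1.17) and MKI67 at 1.07 (1.06 to 1.09). The median log2 ratio of the 15 was -0.08, against -0.02 for all genes and -0.05 for protein-coding genes of at least 20 CPM. PRC1 and NUSAP1 share part of their span with non-coding genes of the same strand, which leaves the assignment of some reads uncertain.

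Among partners of the transport motors, 3 of 14 tested were called higher and 1 lower with miR-182-5p, against 27% and 19.2% of all genes. Among protein-coding genes of at least 20 CPM, a level that not all of these partners reach, the shares were 12.9% and 21.2%. Their median log2 ratio was 0.12, against 0.01 for all genes and -0.06 for protein-coding genes of at least 20 CPM. Nuclear counts alone added SPAG9 to the higher genes. TMM kept the same calls and brought the median of the partners to 0.06. MAPK8IP3, an adaptor that links conventional kinesin to vesicles, had 162, 122 and 106 CPM and a ratio of 1.52 (1.48 to 1.57). KLC1, a light chain of conventional kinesin, had 49.8, 44.2 and 37.4 CPM and a ratio of 1.33 (1.26 to 1.41), while its heavy chain KIF5B lay near NC as given above. MAPK8IP1 was at 1.63 (1.18 to 2.27), on only 100, 91 and 64 counts. KIFBP, a protein that binds kinesin motor domains and keeps them off microtubules, was lower with both microRNAs: it had 30.7, 31.4 and 41.0 CPM and ratios of 0.750 (0.707 to 0.796) and 0.767 (0.724 to 0.812). BORCS5, a subunit of a complex that links lysosomes to kinesins, followed at 0.897 (0.812 to 0.991) for miR-182-5p, and KLC2, another light chain, at 0.915 (0.878 to 0.954).

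With miR-183-5p, KIFAP3, the third subunit of kinesin-2, was called higher; it had 10.4 CPM in miR-182-5p cells, 12.9 in miR-183-5p cells and 9.44 in NC cells. Its ratio was 1.37 (1.23 to 1.52) for miR-183-5p and 1.097 (0.980 to 1.23) for miR-182-5p. Its partners KIF3A and KIF3B stood at 0.969 and 0.926 in miR-183-5p cells. MAPK8IP1 was past 1.2-fold at 1.36, but its interval of 0.977 to 1.904 included 1, and KLC1 stood at 1.18 (1.12 to 1.25). The lowest after KIFBP were BORCS5 at 0.875 (0.793 to 0.964) and RHOT1, a mitochondrial anchor for kinesin adaptors, at 0.929 (0.898 to 0.962). In all, 2 of 14 were called higher and 1 lower, against 14.2% and 11.6% of all genes. Among protein-coding genes of at least 20 CPM the shares were 3.1% and 6.25%. The median log2 ratio of the 14 was 0.01, against -0.02 for all genes and -0.05 for protein-coding genes of at least 20 CPM. Nuclear counts alone added KLC1 to the higher genes and brought the median of the 14 to 0.05. KLC1, MAPK8IP3, KIFAP3, RHOT1 and KIFBP overlap other genes on the same strand.

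**Figure D5:**
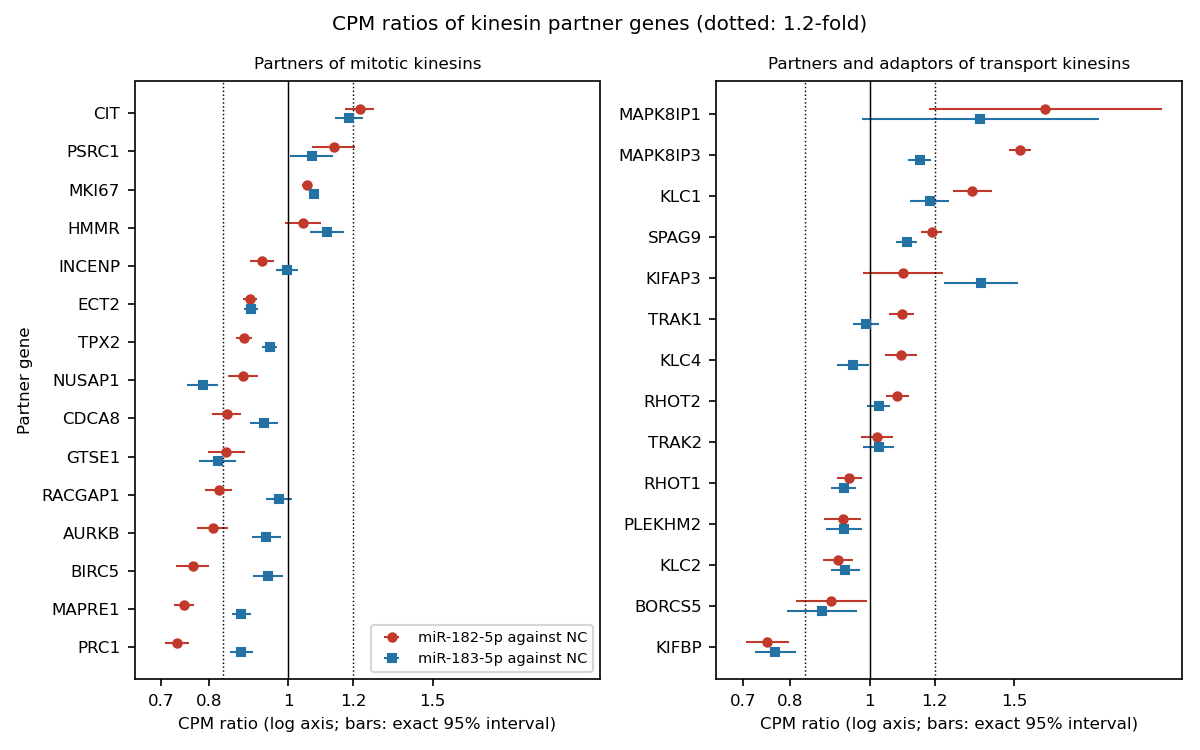
CPM ratio to NC (horizontal, log axis) of genes that encode partners of mitotic kinesins (left) and of transport kinesins (right), for miR-182-5p (circles) and miR-183-5p (squares), with exact 95% intervals and dotted lines at 1.2-fold. PRC1, MAPRE1 and BIRC5 lie left of the lower line for miR-182-5p, KIFBP lies left of it for both, and MAPK8IP3 and KLC1 lie right of the upper line for miR-182-5p.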

How the data were processed

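The deposited table holds, per the file headers, gene counts and FPKM for each of 3 libraries. The counts are whole numbers made by the authors from aligned reads, and the FPKM were deposited beside them. The submitters' processing notes name cutadapt 1.9 and FastQC, and the mouse build GRCm38, although 97.3% of the gene identifiers are in human GENCODE 29 and 99.9% of these overlap their GRCh38 span. For aligner, counter and strand setting, nothing is given in the sources used here.

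Counts were divided by library totals (CPM). Genes with a mean of at least 1 CPM over the 3 libraries were tested, and called at a CPM ratio of at least 1.2 or at most 0.833. Interval bounds come from the exact Clopper-Pearson interval of the first library's share of the summed counts (scipy 1.17.1). TMM factors came from edgeR 4.0.16. Kinesins and partners described in full were those called, those with the 4 highest FPKM of each role, those with a seed site or a count of 0, and the 3 partners farthest from NC on each side; other members are given in less detail. The members and lists were chosen with earlier results of these data known. In simulated libraries of 14864 genes drawn from NC, 199 of 200 genes altered 1.5-fold were called, as were 3.67% of unaltered genes. The simulated libraries varied by counting error alone, without differences between cultures. The 3.67% is therefore not the share of false calls in these data. Some genes of the list of transport partners are not reported here and entered no count or median of that list.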

Additional observations from a re-analysis of the deposited data

How the results depend on the processing

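No paired analysis was possible because each group has 1 library. Other thresholds, scalings and filters mainly moved small counts of called kinesins. For miR-182-5p against NC (3 higher, 2 lower), nuclear counts alone gave 6 and 1, a minimum of 1 count in each library gave 5 higher, and folds of 1.1, 1.5 and 2 gave 6 and 5, 1 and 0, and 0 and 0. For miR-183-5p against NC (2 higher, 0 lower), a minimum of 1 count gave 2 lower, 1.1-fold gave 3 lower, and both 1.5-fold and 2-fold gave 0 higher. For miR-182-5p against miR-183-5p (2 higher, 1 lower), TMM and median of ratios both gave 0 and 3, log2(FPKM + 1) gave 1 and 0, an FPKM of at least 1 in either library gave 1 higher, a minimum of 1 count gave 5 higher, folds of 1.1, 1.5 and 2 gave 4 and 4, 0 and 0, and 0 and 0, and protein-coding genes of at least 20 CPM, added after seeing the data, gave 1 and 0; without members that overlap a gene on the same strand, KIF9 among them, 0 were lower. For miR-182-5p against NC, the median log2 ratio of mitotic kinesins became -0.16 with both TMM and median of ratios, and that of transport kinesins -0.15 with TMM and -0.16 with median of ratios. Between the microRNAs, both medians became -0.12 with either scaling. Scalings shift every log2 ratio of a comparison alike, by construction. A further 42 counts stayed within 1.5 times the reported count. With 1 library per group, differences between cultures cannot be told apart from those of the microRNAs.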
